A study of Mus musculus with 435 samples.

Results

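The basement membrane of the testis cords was described here through 10 genes of the 16459 in the expression table: Col4a1, Col4a2, Lama1, Lamb1, Lamb2, Lamc1, Nid1, Nid2, Hspg2 and Col18a1. They were chosen by name, as genes that encode the chains, linkers and proteoglycans of this sheet, and all 10 were in the table. Earlier results of these data were known at the choice, so shares over all genes set beside their counts are descriptions. The cells came from XY gonads of Nr5a1-eGFP mouse embryos on a mixed background, which carry a green fluorescent reporter of Nr5a1, a gene of the somatic cells of the gonad. Live cells positive for the reporter were sorted and captured singly on 5 days of gestation, written E10.5 to E16.5, with 1 capture at E10.5 and 2 at each other stage. All groups carry the reporter and none was treated, so stage is the contrast between captures. Cells negative for the reporter were sorted away, so a gonad's full set of basement membrane producers is not represented. The number of embryos behind a capture is not in the labels, so a p-value over captures measures the spread between 9 captures.

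A basement membrane is a thin sheet of extracellular matrix on which epithelial cells rest. Laminin trimers, each of an alpha, a beta and a gamma chain, form 1 network, and type IV collagen forms another. Nidogens and the heparan sulfate proteoglycan perlecan bind both. In the fetal testis, Sertoli cells gather around germ cells into cords, and a basement membrane forms between the Sertoli cells and the peritubular and interstitial cells outside them. Both sides of such a boundary can supply its proteins, and RNA levels do not show where a protein was deposited.

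The sequences around the starts of the collagen genes and of Nid1 are shown first because Col4a1 and Col4a2 are neighbours that start close together and are read in opposite directions. Col18a1 is shown as the gene whose class difference had the opposite sign, and Nid1 as the third gene whose mean was called higher in late captures. The windows run from 250 bases before to 50 bases after an annotated first base, taken from RefSeq on GRCm38.p6. They cover chr8:11312777-11313076 on the minus strand for Col4a1, chr8:11312555-11312854 on the plus strand for Col4a2, chr13:13437352-13437651 on the plus strand for Nid1 and chr10:77166481-77166780 on the minus strand for the first of 2 entries of Col18a1. Capitals mark the GC box GGGCGG and the CCAAT box CCAAT, searched on both strands.
Col4a1: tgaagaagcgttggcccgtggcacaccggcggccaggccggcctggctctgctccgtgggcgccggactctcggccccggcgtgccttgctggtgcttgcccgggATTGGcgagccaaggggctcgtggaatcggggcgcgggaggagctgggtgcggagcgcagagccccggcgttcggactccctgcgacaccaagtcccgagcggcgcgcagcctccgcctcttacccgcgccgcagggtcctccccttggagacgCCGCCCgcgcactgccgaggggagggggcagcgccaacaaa
Col4a2: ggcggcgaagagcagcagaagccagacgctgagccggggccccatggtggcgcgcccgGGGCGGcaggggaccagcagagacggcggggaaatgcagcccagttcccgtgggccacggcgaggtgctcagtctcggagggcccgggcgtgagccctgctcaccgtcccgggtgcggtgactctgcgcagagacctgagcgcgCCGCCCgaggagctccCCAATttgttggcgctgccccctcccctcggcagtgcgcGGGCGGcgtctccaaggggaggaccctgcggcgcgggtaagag
Nid1: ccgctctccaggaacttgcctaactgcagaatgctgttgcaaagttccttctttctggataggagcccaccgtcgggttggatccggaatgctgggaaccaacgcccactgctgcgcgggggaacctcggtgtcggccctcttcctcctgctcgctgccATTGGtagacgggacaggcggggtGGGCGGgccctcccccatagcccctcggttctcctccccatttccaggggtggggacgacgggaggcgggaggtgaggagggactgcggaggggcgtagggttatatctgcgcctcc
Col18a1: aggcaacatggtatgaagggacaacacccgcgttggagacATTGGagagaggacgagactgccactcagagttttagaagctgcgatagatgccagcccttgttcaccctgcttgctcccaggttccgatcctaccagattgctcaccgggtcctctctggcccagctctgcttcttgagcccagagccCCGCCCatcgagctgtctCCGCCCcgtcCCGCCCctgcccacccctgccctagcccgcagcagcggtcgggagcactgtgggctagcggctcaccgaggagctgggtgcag

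The Col4a1 and Col4a2 windows share 78 bases (chr8:11312777-11312854), which hold 1 GC box, and the annotated first exons overlap by 22 bases. The windows overlap around both starts, and no base of them lies upstream of both genes. The shared stretch is shown on the plus strand, the strand of Col4a2.
Shared: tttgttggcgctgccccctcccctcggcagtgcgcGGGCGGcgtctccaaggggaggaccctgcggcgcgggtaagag
Of the 10 genes, 7 had a window, with 8 windows in all, and Lama1, Lamc1 and Nid2 had none. The windows ranged from 44% GC at Lamb2 to 74% at Col4a1, and the median over 32851 windows of all genes was 52.7%. A GC box was in 35.7% and a CCAAT box in 37.4% of all windows. Col4a1 held 1 GC box, Col4a2 3, Lamb1 2, Nid1 1, Hspg2 5 and the first Col18a1 window 3, while Lamb2 and the second Col18a1 window held none. The SOX core ACAAT, in 31% of all windows, was in the Lamb2 window alone among these 8, and the TATA box TATAAA, in 13.6%, was in none. These are matches of letters and were not tested for binding.

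In GENCODE M21 on GRCm38 the collagen and nidogen genes span Col4a1 at chr8:11198423-11312826 (minus strand), Col4a2 at chr8:11312805-11449287 (plus strand), Col18a1 at chr10:77052178-77166548 (minus strand), Nid1 at chr13:13437551-13512269 (plus strand) and Nid2 at chr14:19751265-19811787 (plus strand). The laminin genes are Lama1 at chr17:67697259-67822647 (plus strand), Lamb1 at chr12:31265234-31329644 (plus strand), Lamb2 at chr9:108479736-108490530 (plus strand) and Lamc1 at chr1:153218922-153332786 (minus strand), and Hspg2 lies at chr4:137468769-137570630 (plus strand). Col4a1 and Col4a2 are the only 2 of the 10 that adjoin each other.

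After filters, 396 cells were used, from 30 to 59 in a capture. The values are RPKM, which scales reads to transcript length and to sequencing depth, so they can be compared between genes. Captures of E10.5 and E13.5 were labelled as sequenced to 25 M reads and the others to 10 M reads. The depth implied by the values per cell had capture medians of 7.83 to 8.10 M in the first kind and 2.20 to 3.24 M in the second. Read depth therefore moves with stage, and values within each run are given where they matter. Cells were classed by markers that include none of the 10 genes. A cell with at least 3 of 8 Sertoli markers at 1 RPKM or more, and at least 2 more than its stromal markers, was called Sertoli-marker (72 cells), and the mirror rule gave 250 stromal cells. The other 74 were neither. The summed mean level of the 8 Sertoli markers was 2934 to 9152 RPKM in Sertoli-marker cells and 8.18 to 278 RPKM in stromal cells of the late captures, as the rule requires. Each late capture held 5 to 18 Sertoli-marker and 10 to 38 stromal cells. E11.5 held 3 Sertoli-marker cells and E10.5 none, so early and late captures differ in the cells they hold.

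Type IV collagen is the main structural collagen of basement membranes, and its common form is a trimer of alpha 1 chains, from Col4a1, and an alpha 2 chain, from Col4a2. Both genes rose from the 3 captures before E12.5, called early, to the 6 from E12.5 on, called late. The mean level of Col4a1 over cells was 10.6 RPKM at E10.5. The E11.5 captures gave 10.1 and 18.9, the E12.5 captures 24.4 and 38.2, the E13.5 captures 79.4 and 57.8, and the E16.5 captures 37.9 and 77.7. Every late capture was above every early one. The mean was 13.2 ± 4.94 RPKM in early captures (SD, n = 3) and 52.6 ± 22.8 in late ones (SD, n = 6), a difference of 1.85 ± 0.38 (SE) on the log2(RPKM + 1) scale with an adjusted p of 0.0481 (limma). Col4a2 had means of 4.48 RPKM at E10.5. The E11.5 captures gave 7.87 and 6.02, the E12.5 captures 19.2 and 33.9, the E13.5 captures 66.9 and 38.6, and the E16.5 captures 13.2 and 49.01. Its late captures also lay above all early ones, and the first E16.5 capture was the lowest of them. The difference was 2.25 ± 0.45 with an adjusted p of 0.0433.

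Nidogen 1, the linker that joins laminin to type IV collagen, rose as well. Mean Nid1 was 18.4 RPKM at E10.5. The E11.5 captures gave 24.5 and 35.8, the E12.5 captures 70.4 and 62.3, the E13.5 captures 66.1 and 87.3, and the E16.5 captures 53.6 and 66.4. The lowest late capture was above the highest early one. The mean went from 26.2 ± 8.84 RPKM (SD, n = 3) to 67.7 ± 11.2 (SD, n = 6), a difference of 1.37 ± 0.27 with an adjusted p of 0.0399. Nid2, its homologue, had means of 24.4 RPKM at E10.5. The E11.5 captures gave 16.4 and 22.99, the E12.5 captures 14.6 and 6.45, the E13.5 captures 19.1 and 18.3, and the E16.5 captures 9.61 and 41.2. Early and late captures overlapped, with a difference of -0.41 ± 0.46 and an adjusted p of 0.817. The ratio of the Nid1 to the Nid2 mean was 0.752, 1.5 and 1.56 in the early captures and 1.61 to 9.66 in the late ones.

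In all, 3 of the 10 genes were called higher in late captures and 0 lower. Over all genes tested, 0.463% were called higher. Late captures lay above early ones without overlap for 4 of the 10, these 3 and Lama1, and for 2.96% of all genes tested. The median difference was 1.06 over the 10 genes and -0.01 over all 12313 genes tested. These are means over all cells of a capture, so more cells of a type and more RNA per cell cannot be told apart. The 3 calls lay close to the threshold. When each of the 9 captures was left out in turn, Col4a1 passed once (without the first E12.5 capture, adjusted p = 0.0169), and its adjusted p ranged from 0.0514 without the second E12.5 capture to 0.166 without E10.5 in the others. Col4a2 passed without either the first E12.5 capture (0.0254) or the first E16.5 capture (0.0232), and had 0.0591 to 0.155 without any of the other 7. Nid1 passed without the second E11.5, either E12.5 or the first E16.5 capture (0.0357 to 0.0489), and had 0.0712 to 0.164 without any of the other 5.

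Within the 10 M read run the late minus early differences were 1.49 ± 0.48 for Col4a1, 1.75 ± 0.54 for Col4a2 and 1.06 ± 0.30 for Nid1, with adjusted p of 0.407 to 0.454. Within the 25 M read run they were 2.57 ± 0.65, 3.24 ± 0.65 and 1.99 ± 0.65, from 3 captures. The 1 of E10.5 was assumed to vary like the others, so these standard errors rest mostly on a spread shared over genes. In a fit on stromal cells alone, chosen after seeing the data, the differences were 2.11 ± 0.45, 2.66 ± 0.52 and 1.51 ± 0.32, with adjusted p of 0.119, 0.0778 and 0.110. These estimates were no smaller than those over all cells (1.85, 2.25 and 1.37), but none passed the threshold there. That fit called 5 of 11854 genes tested. Whether the stromal class holds the same cell type at all stages was not tested.

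**Figure D1:**
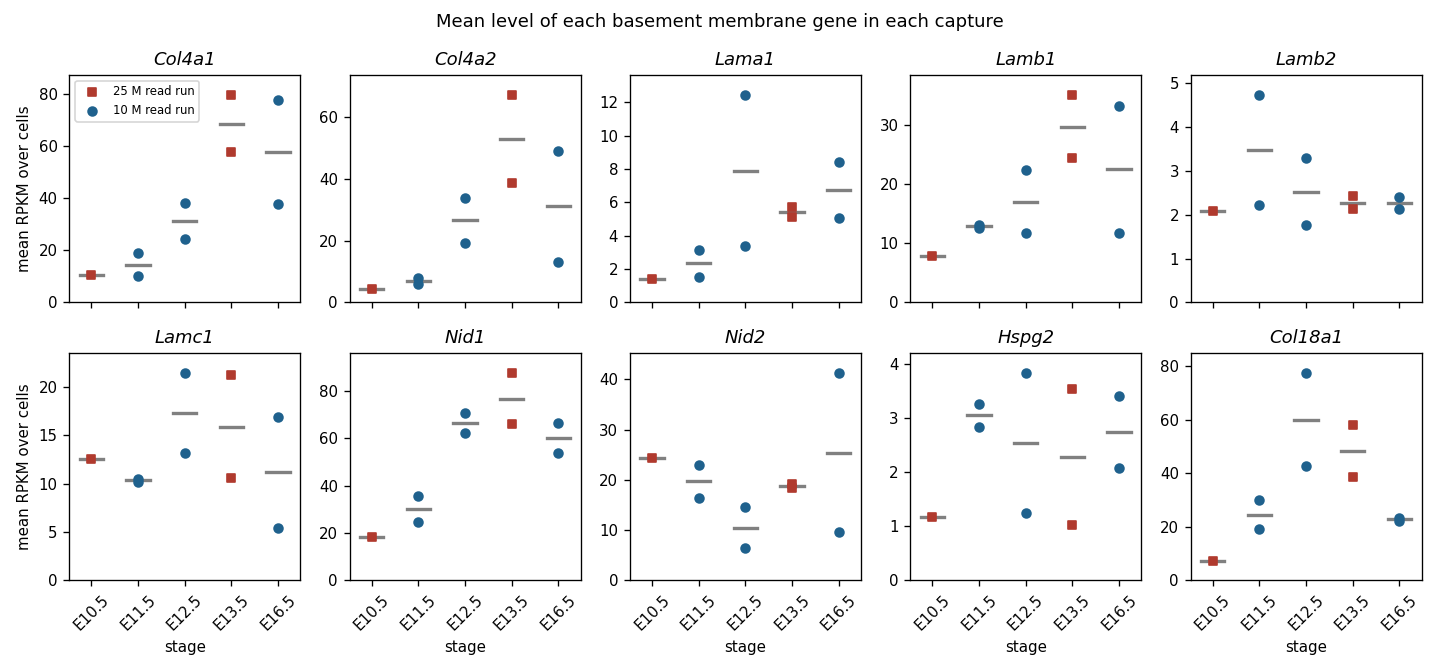
Mean RPKM over the kept cells of each capture (points; squares for the 25 M read run, circles for the 10 M read run) and the mean of the captures of a stage (grey bars), 1 panel per gene, each on its own axis from 0. The 6 late captures of Col4a1, Col4a2, Lama1 and Nid1 lie above the 3 early ones. Those of Lamb1, Lamb2, Lamc1, Nid2, Hspg2 and Col18a1 overlap with the early ones.

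The laminin chains differed in level and in course. Lamb1, the beta 1 chain, had a mean over the 9 captures of 19.1 ± 10.0 RPKM (SD), and Lamc1, the gamma 1 chain found in most laminins, had 13.6 ± 5.34. Lama1, the alpha 1 chain typical of early embryonic basement membranes, was lower at 5.14 ± 3.50. Lamb2, the beta 2 chain known from kidney and neuromuscular basement membranes, was at 2.57 ± 0.901 RPKM. The order of the 10 genes differed between the periods. In the 3 early captures Nid1 (26.2 ± 8.84 RPKM) was followed by Nid2 (21.3 ± 4.30), Col18a1 (18.7 ± 11.3), Col4a1 (13.2 ± 4.94), Lamb1 (11.2 ± 2.86) and Lamc1 (11.1 ± 1.27), then Col4a2 (6.12 ± 1.70), Lamb2 (3.01 ± 1.47), Hspg2 (2.42 ± 1.11) and Lama1 (2.04 ± 0.965). In the 6 late captures the order was Nid1 (67.7 ± 11.2), Col4a1 (52.6 ± 22.8), Col18a1 (43.6 ± 21.1), Col4a2 (36.8 ± 19.7), Lamb1 (23.02 ± 10.05), Nid2 (18.2 ± 12.3), Lamc1 (14.8 ± 6.28), Lama1 (6.68 ± 3.25), Hspg2 (2.52 ± 1.23) and Lamb2 (2.35 ± 0.511). Neighbours in either order have ranges of mean ± SD that overlap, apart from Lamc1 and Col4a2 in early captures.

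Lama1 means were 1.42 RPKM at E10.5. The E11.5 captures gave 3.15 and 1.54, the E12.5 captures 12.4 and 3.39, the E13.5 captures 5.71 and 5.12, and the E16.5 captures 5.07 and 8.40. The captures of the 2 periods did not overlap, but the gap was small, from 3.15 to 3.39 RPKM, and the difference of 1.29 ± 0.46 did not pass (adjusted p = 0.294). Lamb1 had early means of 7.89, 13.1 and 12.6 RPKM and late means of 11.7 to 34.9, a difference of 0.89 ± 0.40 (adjusted p = 0.438). Its difference was 0.45 ± 0.50 within the 10 M read run (0.912) and 1.76 ± 0.66 within the 25 M read run. The differences of Lamc1 (0.27 ± 0.41, adjusted p = 0.884) and Lamb2 (-0.21 ± 0.44, adjusted p = 0.927) were smaller than their standard errors. The Lamb2 difference was above 0 in 3 alternative fits, such as the one without the first E11.5 capture (0.08).

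Perlecan, from Hspg2, and the type XVIII collagen chain, from Col18a1, are the heparan sulfate proteoglycans of this list, and collagen XVIII also yields the fragment endostatin. Hspg2 was low throughout, between 1.02 and 3.82 RPKM in the 9 captures, with a late minus early difference of 0.02 ± 0.49 (adjusted p = 0.995) whose sign turned in 6 alternative fits, among them the one without E10.5 (-0.28). Col18a1 had means of 7.14 RPKM at E10.5. The E11.5 captures gave 19.3 and 29.8, the E12.5 captures 77.2 and 42.7, the E13.5 captures 38.6 and 57.8, and the E16.5 captures 23.2 and 22.3. It was highest at E12.5 and E13.5, and both E16.5 captures fell within the range of E11.5. The late minus early difference was 1.24 ± 0.45 (adjusted p = 0.311). It was 0.57 ± 0.51 within the 10 M read run (0.887) and 2.57 ± 0.65 within the 25 M read run. The fit of the 25 M read run holds no E12.5 or E16.5 capture and 1 capture of E10.5.

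Stage by stage, Col18a1 was the 1 gene of the 10 that passed. It was higher at E13.5 than at E10.5, both of the 25 M read run, by 2.57 ± 0.54 with an adjusted p of 0.0471 (limma), against 0.958% of genes tested that were called higher. In that contrast Col4a1 (2.57 ± 0.59, 0.0704), Col4a2 (3.24 ± 0.74, 0.0704) and Nid1 (1.99 ± 0.44, 0.0643) missed the threshold. E10.5 has 1 capture, whose spread was taken from the other stages. The Col18a1 call was absent in all 6 fits that left out an E11.5, E12.5 or E13.5 capture in turn and also in both that left out an E16.5 capture, where Col4a2 passed instead (adjusted p = 0.0245 and 0.0300). Between E16.5 and E11.5, both of the 10 M read run, 0 of 10 were called against 1.52% of genes (3 had an unadjusted p under 0.05, against 12.9% of all genes), and Col4a1 came nearest with 1.90 ± 0.48 (adjusted p = 0.0796).

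None of the 10 was called between neighbouring stages. The share of genes called either way was 0.390% for E11.5 against E10.5, 0% for E12.5 against E11.5, 0% for E13.5 against E12.5 and 0.0893% for E16.5 against E13.5. At an unadjusted p under 0.05 the members were 1, 4, 1 and 1 of 10 in these contrasts, all from the same limma fit, against 6.39%, 7.80%, 4.57% and 8.47% of all genes, so 3 of the 4 counts are near the share over all genes. The 4 of E12.5 against E11.5, the stages around cord formation, sequenced in 1 run, were Col4a2 (1.75 ± 0.60), Col18a1 (1.22 ± 0.44), Nid1 (1.13 ± 0.36) and Col4a1 (1.09 ± 0.48), with adjusted p of 0.465 to 0.625. At E16.5 against E13.5, Col18a1 had a difference of -1.03 ± 0.44 (adjusted p = 0.557).

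Sertoli-marker and stromal cells were compared within the 6 late captures, so stage, run and capture are the same on both sides. Col18a1 was higher in Sertoli-marker cells, and Nid2, Col4a1, Nid1 and Col4a2 were higher in stromal cells. Of all 12058 genes tested, 3.40% were called higher and 4.22% lower in Sertoli-marker cells, where the 10 genes gave 1 and 4. Besides these 4, Lamb1, Lamc1 and Hspg2 had lower means in Sertoli-marker cells in every late capture, which makes 7 of 10 genes, against 11.1% of all genes tested. Col18a1 was above in all 6 captures, as were 5.37% of genes. The median difference was -1.25 over the 10 genes and -0.16 over all genes.

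Mean Col18a1 in Sertoli-marker cells was 315 and 148 RPKM in the E12.5 captures, 70.7 and 224 in those of E13.5, and 37.0 and 41.5 in those of E16.5. In stromal cells of the same captures it was 31.6 and 26, then 18.2 and 20.6, then 0.129 and 0.652 RPKM. The lowest Sertoli-marker capture was above the highest stromal one, which held for 1.97% of genes tested. The difference was 3.46 ± 0.44 with an adjusted p of 0.000439 (limma), and it was called in all 16 alternative fits. The alternative that asked for at least 3 cells of a class kept the same 6 captures, so it repeats the fit of the report. Of the 69 late Sertoli-marker cells, those at 1 RPKM or more were 86.7 to 100% in a capture, and among stromal cells 0 to 62.5%. In the first E16.5 capture 0 of 10 stromal cells reached 1 RPKM, which allows a share of up to 27.8% (upper end of the 95% Wilson interval). Sertoli-marker cells held 46.9 to 82.5% of all Col18a1 signal in the late captures while they were at most 51.6% of the cells of a capture. Sertoli-marker cells also had more detected genes in all 6 captures (medians 5053 to 7048, and 4626 to 5781 in stromal cells), and Col18a1 had a mean within-capture correlation of 0.28 with the number of detected genes. The part of detection in the difference was not tested.

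Within each class Col18a1 was lower at E16.5 than at E12.5 in both captures. The difference was -2.43 ± 0.63 in Sertoli-marker cells (adjusted p = 0.243) and -4.44 ± 0.80 in stromal cells (adjusted p = 0.0886). Neither passed. The stromal difference passed without the first E16.5 capture (-4.17, 0.0257), without the second (-4.72, 0.0233) and with the mean of log2 values (-2.54, 0.0309). The fits without an E16.5 capture leave 1 capture at that stage, which is assumed to vary like those of the other stages. None of the 10 genes was called in either class. In Sertoli-marker cells 9 were tested, since Hspg2 missed the filter on low values there. The share of all genes called was 0.0574% in Sertoli-marker and 0.0635% in stromal cells. The unadjusted p was under 0.05 for 1 gene, Col18a1, in the first and for Col18a1 and Nid2 in the second, against 9.92% and 11.4% of all genes, so the count in Sertoli-marker cells is near the share over all genes. In cells that met the stromal marker rule before cord formation, Col18a1 had been at 7.0, 14.5 and 18.9 RPKM. These were 52 of 59 cells at E10.5, and 41 of 52 and 21 of 41 at E11.5. Whether they are the same cell type as late stromal cells was not tested. For stromal cells only, a choice made after seeing the data, the late minus early difference was -0.53 ± 1.0 (adjusted p = 0.940). Its sign was opposite to that over all cells. The direct stromal contrast of E16.5 with E11.5 was called (-3.69 ± 0.69, adjusted p = 0.0428, limma). That contrast called 46 genes lower and 28 higher of 11854 tested, with a median difference of -0.28 over all genes.

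Nid2 had the opposite class pattern. In Sertoli-marker cells its mean was 0.0110 and 0.0132 RPKM in the E12.5 captures, 5.79 and 2.53 in those of E13.5, and 0.0925 and 0.698 in those of E16.5. In stromal cells it was 16.3 and 5.67, then 30.2 and 24.1, then 28.1 and 71.4 RPKM. It was lower in Sertoli-marker cells in 6 of 6 captures, with a difference of -3.67 ± 0.58 (limma adjusted p = 0.00189). It passed in all 16 alternative fits, the repeated fit included. The E13.5 captures, which were sequenced deepest, were the 2 with the most Nid2 in Sertoli-marker cells, with 6 of 18 and 3 of 10 cells at 1 RPKM or more. Against these, 0 of 5, 0 of 5, 0 of 16 and 1 of 15 cells reached that level in the other 4. A count of 0 allows a share of up to 43.4% for 5 cells and 19.4% for 16 cells (upper end of the 95% Wilson interval).

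Col4a1 in Sertoli-marker cells was at 12.2 and 11.6 RPKM in the E12.5 captures, 43.6 and 14.8 in those of E13.5, and 29.4 and 40.8 in those of E16.5. In stromal cells it was at 27.4 and 48.4, then 109.1 and 76.7, then 59.9 and 107.8 RPKM. Ranges overlapped between captures, but within each capture the stromal mean was higher. The difference was -1.51 ± 0.31 with an adjusted p of 0.00966 (limma), and it passed in all 16 alternative fits, the repeated fit included. Most Sertoli-marker cells still held Col4a1: 60% to 87.5% were at 1 RPKM or more in a capture. The gene was lower there and not absent.

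Nid1 was lower in Sertoli-marker cells, with a difference of -1.40 ± 0.32 (adjusted p = 0.0164). Its means there were 38.1, 13, 22.2, 69.8, 31.7 and 39.1 RPKM in the 6 late captures, and in stromal cells 81.6, 69.2, 90, 88.4, 106.8 and 75.9. The highest Sertoli-marker mean was just above the lowest stromal one, from another capture. Without the first E13.5 capture the adjusted p was 0.0580, and the call held without any of the other 5. Col4a2 had -1.59 ± 0.44 (adjusted p = 0.0425), with means of 14.2, 20.2, 23.3, 8.87, 2.60 and 34.6 RPKM in Sertoli-marker cells and 14.8, 44.4, 97.5, 50.1, 30.5 and 64.0 in stromal cells. In the first E12.5 capture the 2 classes were nearly equal. The Col4a2 call was kept without that capture (adjusted p = 0.0201) and was lost without any of the other 5 (0.0620 to 0.135).

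Some stromal cells of the late captures (0 to 12 in a capture) held at least 2 of 5 smooth muscle and peritubular markers, and the summed level of those markers was 12.7 to 1969 RPKM in stromal cells and 0.0988 to 323 RPKM in Sertoli-marker cells, where Cnn1 was at 0. Peritubular cells lie against the cord basement membrane. A fit without these stromal cells rests on 5 captures, since the first E16.5 capture then keeps 3 stromal cells and drops out. Col4a1, Nid2 and Col18a1 stayed called in it, while Nid1 (-1.41, adjusted p = 0.0729) and Col4a2 (-1.39, 0.127) did not. With that capture left out and the marker-bearing cells kept, Nid1 had -1.34 (0.0487) and Col4a2 -1.28 (0.104). Col4a1 was lower in the marker-bearing stromal cells than in the rest in 3 of 5 captures that held both kinds and higher in the 2 of E16.5, for example 197 RPKM in 4 cells and 72.01 RPKM in 10 cells of the second E16.5 capture.

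Lama1 was the least steady of the chains between the classes. In Sertoli-marker cells its mean was 0.764, 6.71, 8.69, 9.54, 3.68 and 16.9 RPKM in the 6 late captures, and in stromal cells 10.8, 3.76, 0.218, 4.84, 7.12 and 0.526. It was higher in Sertoli-marker cells in 4 of 6 captures, with a difference of 0.76 ± 0.77 (adjusted p = 0.620). Lamb1 (-1.28 ± 0.45, 0.107), Hspg2 (-1.21 ± 0.50, 0.177) and Lamc1 (-1.05 ± 0.46, 0.20) did not pass. Hspg2 in Sertoli-marker cells (0.237 to 0.920 RPKM) lay below stromal cells (1.25 to 6.65 RPKM) without overlap, as did 2.58% of genes tested. Lamb2 had -0.43 ± 0.51 (0.679), and its sign turned in 2 alternative fits. The class difference did not pass for any of the 10 genes when E16.5 was set against E12.5, where 0% of genes were called and 0 members had an unadjusted p under 0.05, against 10.4% of all genes. The largest estimates were 2.41 ± 1.79 for Lama1 and 2.01 ± 1.12 for Col18a1.

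**Figure D2:**
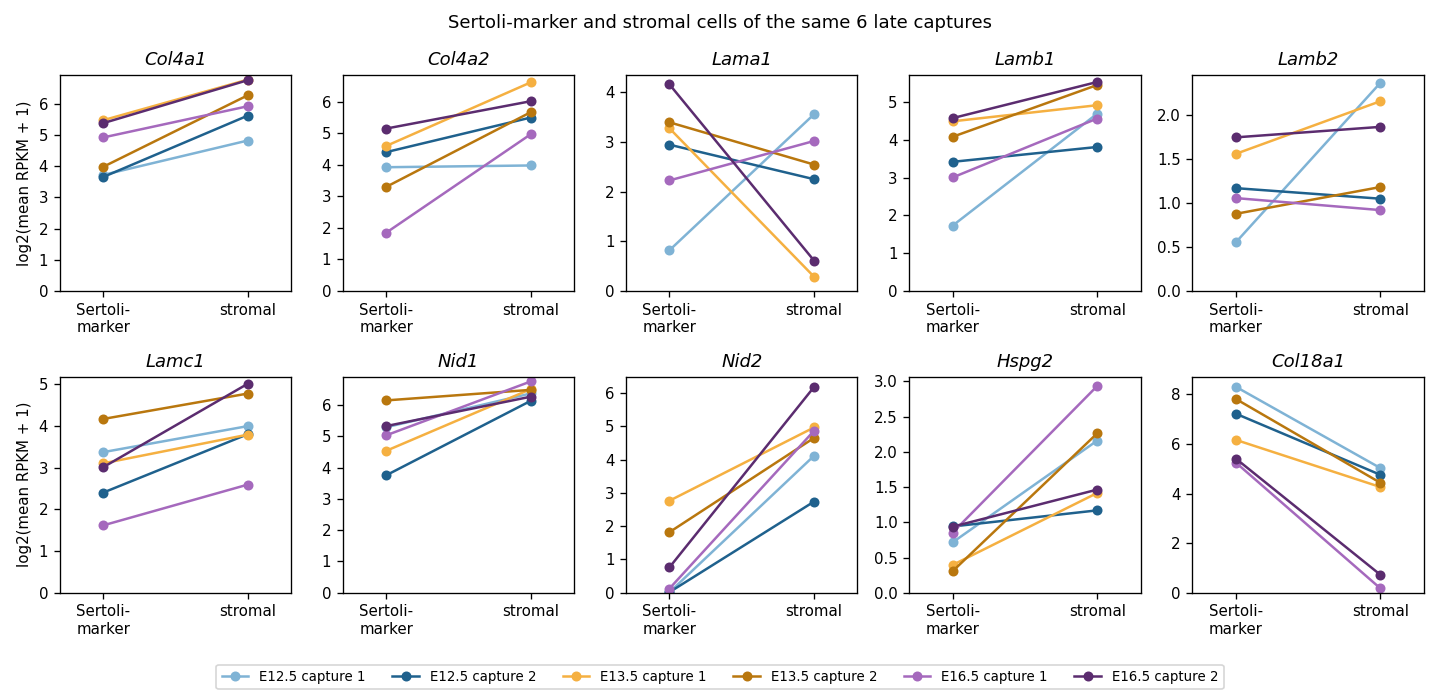
log2 of the mean RPKM plus 1 in Sertoli-marker cells (left of each panel) and stromal cells (right), with 1 line per late capture and 1 panel per gene. Lines for Col4a1, Col4a2, Lamb1, Lamc1, Nid1, Nid2 and Hspg2 rise to the right in all 6 captures, those for Col18a1 fall in all 6, and those for Lama1 and Lamb2 cross.

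**Figure D3:**
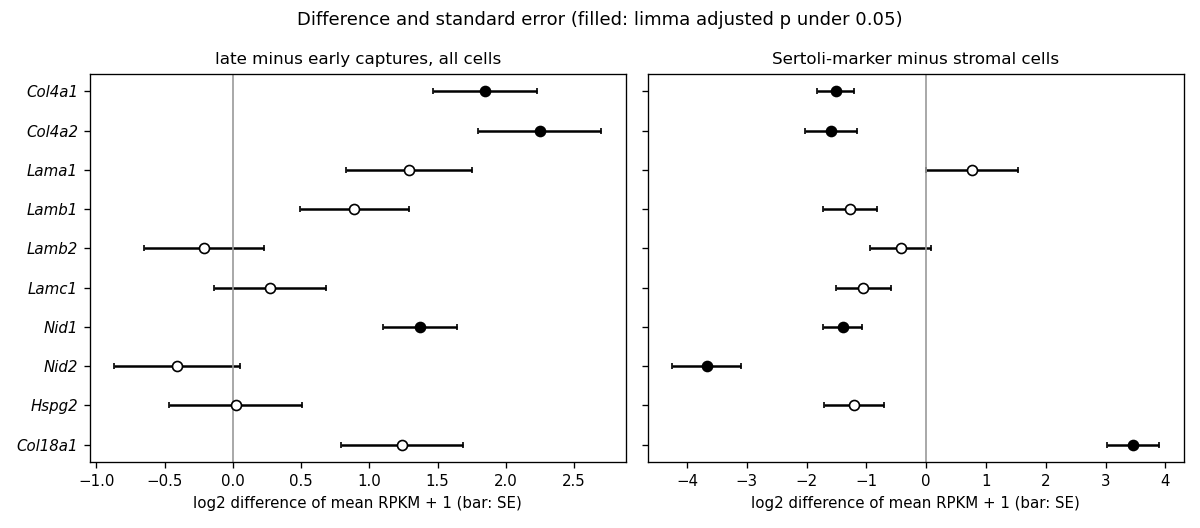
Estimated log2 difference (points) and its standard error (bars) for late minus early captures over all cells, left, and for Sertoli-marker minus stromal cells of late captures, right. Filled points had a limma adjusted p under 0.05: Col4a1, Col4a2 and Nid1 on the left, and Col4a1, Col4a2, Nid1, Nid2 and Col18a1 on the right.

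Single cells showed how uneven these means are. A cell held a median of 5 of the 10 genes at 1 RPKM or more, the most was 9, and 1 cell held none. In each capture the top 10% of cells for a gene held 34.8 to 69.5% of the summed Col4a1, 35.5 to 73.7% of Nid1 and 85.9 to 96.2% of Lamb2. Nid2 was concentrated most at E16.5, where 4 cells of each capture held 91.7% and 90.4% of the sum. The highest Nid2 cell, a stromal cell of the second E16.5 capture, was at 613 RPKM, while the median of that capture's 14 stromal cells was 0.825.

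**Figure D4:**
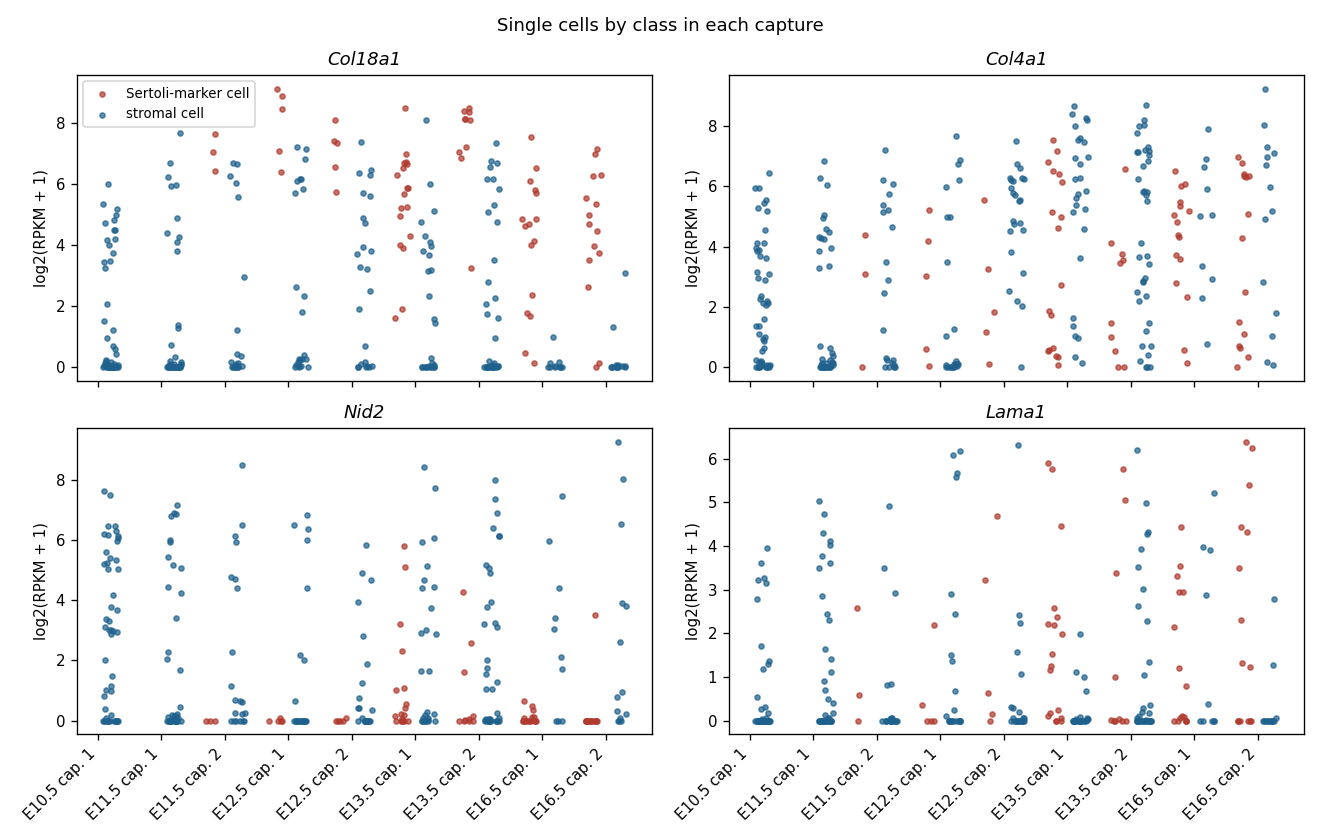
log2(RPKM + 1) of Col18a1, Col4a1, Nid2 and Lama1 in each Sertoli-marker cell (red) and stromal cell (blue) of the 9 captures, with random sideways spread. Red points of Col18a1 sit high from E11.5 to E13.5 and lower at E16.5, where 2 of 24 stromal cells reached 1 RPKM. Nid2 shows few red points above the baseline.

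Chains that form 1 trimer were not always found in the same cell. Col4a1 was at 1 RPKM or more in 265 of 396 cells, Col4a2 in 224 and both in 180, so 80.4% of Col4a2 cells held Col4a1 and 67.9% of Col4a1 cells held Col4a2. Of the cells with Lama1, 33 (30.3%) also held Lamb1 and Lamc1, the partners with which it forms the laminin trimer of early embryos. Among all cells, Lamb1 was at 1 RPKM or more in a mean of 69.3% of the cells of a capture, and Lamc1 in 47.5%. Whether cells with Lama1 differ from the others in this was not tested. Low or patchy detection in single cells was not separated from absence. The Col4a1 to Col4a2 ratio of capture means was 1.13 to 3.14, above 1 in all 9 captures. Lamb1 exceeded Lamb2 by at least 2.78 times in each.

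Col4a1 and Col4a2, the neighbours shown above, had the highest correlation of the 45 pairs across cells. Pearson's r of log2(RPKM + 1), taken within a capture and averaged over 9 captures, was 0.40 (0.00 to 0.67). Within stromal cells alone it was 0.43 (0.04 to 0.69, 9 captures), and within Sertoli-marker cells 0.38 (0.15 to 0.69, 4 captures with at least 10 such cells). The lowest pair was Col4a1 with Col18a1 at -0.17, which was -0.09 within stromal and -0.03 within Sertoli-marker cells. Lama1 had mean r values between -0.10 and 0.04 with the other 9 genes. Cells of a capture share library, depth and class makeup, so these values are descriptions without a test.

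**Figure D5:**
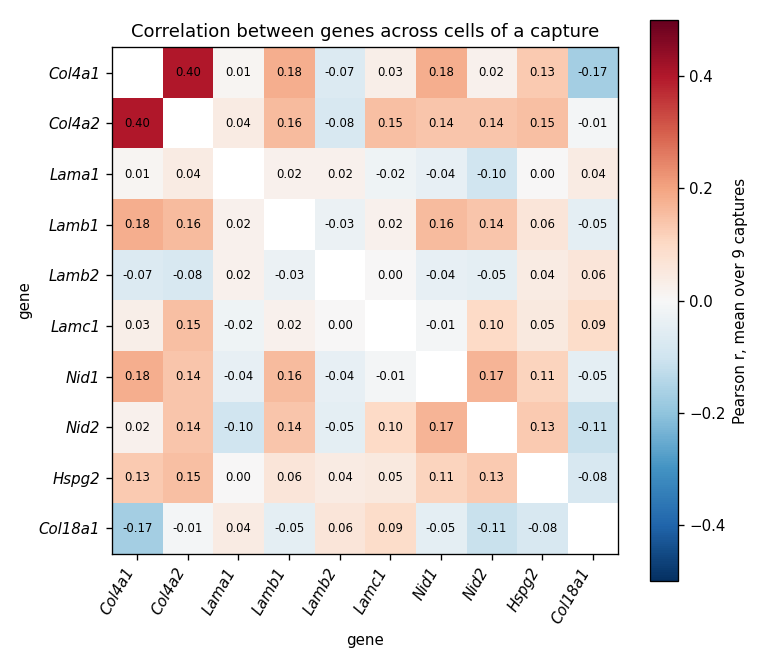
Pearson's r of log2(RPKM + 1) between each pair of the 10 genes across cells of a capture, averaged over 9 captures with equal weight. Col4a1 with Col4a2 stands out at 0.40, Col4a1 with Col18a1 is lowest at -0.17, and the Lama1 row is near 0.

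Likeness was read among 7311 genes at 1 RPKM or more in at least 20% of cells, predicted gene models apart. Outside the 10 genes, those most like Col4a1 by the same measure were Robo2 (0.34), Itga9 (0.32), Clca1 (0.31), Nrg1 (0.31) and Dlc1 (0.30). Those most like Lama1 were Zfp318 (0.22), Trim41 (0.21), Cdk16 (0.20), Rere (0.20) and Setd3 (0.20). The values for Lama1 are weak.

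Other parts of the basement membrane system were read from 4 further lists. Of 22 further chains, proteoglycans and associated proteins, 20 were tested between the classes, 3 were higher and 6 lower in Sertoli-marker cells, where 3.40% of all genes were called higher and 4.22% lower. Tinagl1 was higher (24.3 ± 9.82 against 2.50 ± 3.0 RPKM, SD, n = 6, 3.20 ± 0.62, adjusted p = 0.00642 by limma), as was Smoc1, a matricellular protein of the SPARC family (3.26 ± 0.75, 0.0188), although Smoc1 passed in 4 of 6 fits without a capture, with up to 0.0757 without the second E13.5 capture. Egflam, which encodes the dystroglycan ligand pikachurin, was lower (0.839 ± 1.15 against 19.6 ± 13.1 RPKM, -3.42 ± 0.55, 0.00204), as was Fbln1, fibulin 1 (-2.97 ± 0.59, 0.00764). The median of this list was -0.80, and that of all genes -0.16.

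Of 11 tested receptors, 2 were higher and 1 lower in Sertoli-marker cells (3.40% and 4.22% of all genes). Itga6, the alpha chain of laminin-binding integrins, was at 61.2 ± 26.5 RPKM in Sertoli-marker and 2.84 ± 2.81 in stromal cells (SD, n = 6), higher in 6 of 6 captures (4.22 ± 0.59, adjusted p = 0.000860 by limma). Dag1, which encodes dystroglycan, another laminin receptor, was at 47.8 ± 20.3 and 12.51 ± 6.50 RPKM (1.89 ± 0.38, 0.00746). Itga9 was lower (-2.57 ± 0.64, 0.0277), and leaving out captures in turn kept it in 2 of 6 fits, with up to 0.102 without the second E13.5 capture. Sertoli-marker cells thus held more RNA of these 2 laminin receptors. Lamb1 and Lamc1 had lower means in them without a call, and Lama1 was higher in them in 4 of 6 captures. The median of the 11 receptors was 0.08, and that of all genes -0.16.

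None of the 13 tested genes of collagen folding, secretion and crosslinking was called between the classes, and 5 had an unadjusted p under 0.05 (limma), as had 22.48% of all genes tested. The collagen chaperone Serpinh1 had -0.83 ± 0.31 (adjusted p = 0.130) and P4hb, a subunit of prolyl 4-hydroxylase, -0.31 ± 0.24 (0.482). Of 7 turnover genes 4 were lower in Sertoli-marker cells and 0 higher, against 4.22% and 3.40% of all genes. These were the metalloproteinase inhibitors Timp2 (6.66 ± 6.85 against 42.6 ± 13.7 RPKM, -3.25 ± 0.60, 0.00507) and Timp3 (-1.27 ± 0.35, 0.0450), and the metalloproteinases Mmp14 (-2.88 ± 0.63, 0.0137) and Mmp2 (-0.84 ± 0.23, 0.0436). Leaving out captures in turn kept Timp3 and Mmp2 in 1 of 6 fits each, with adjusted p of up to 0.158 and 0.126. Between late and early captures 0 genes of the 4 lists were called. An unadjusted p under 0.05 (limma) was found there for 6 of 18 further chains, 3 of 10 receptors, 0 of 13 folding genes and 5 of 7 turnover genes, against 10.9% of all genes tested. The integrin beta 1 chain Itgb1 (94.4 ± 13.3 RPKM late, 52.1 ± 7.28 early, 0.84 ± 0.23) had an adjusted p of 0.133 and the matrix protein Sparc (698 ± 200 late, 327 ± 121 early, 1.12 ± 0.28) one of 0.103.

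Of all kept cells, whatever their class, 19 held at least 3 Leydig markers and 4 at least 3 endothelial markers. The Leydig-marker cells had a median Col4a1 of 17.8 RPKM (0.0560 to 230). The 4 endothelial-marker cells ranged from 49.6 to 307 RPKM for Col4a1 and from 29.2 to 264 for Nid2, and leaving them out kept all 3 late against early calls. The summed germ cell markers were at most 0.00548 RPKM in early captures and up to 91.2 RPKM in late ones. In the second E12.5 capture 11 cells held at least 2 germ cell markers. Without such cells Col4a2 alone of the 3 late against early calls passed (limma adjusted p = 0.0444, with Col4a1 and Nid1 at 0.0531). The summed germ cell markers reached 128.3 RPKM in stromal cells of a late capture and 26.6 RPKM in Sertoli-marker cells. The class comparison was not fitted without germ-marker cells.

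The library kit does not mark strand, so reads from overlapping genes on opposite strands cannot be told apart. Col4a1 (7464 exonic bases) and Col4a2 (6619 exonic bases) shared 22 bases. Another 43 bases of Col4a2 were listed as shared with Gm15419. The other affected stretches were 143 of 6943 bases of Nid1, with Gm48682, and 437 of 5174 of Nid2, with the end of Rtraf.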

How the data were processed

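The RPKM values per cell were deposited by the authors for 400 of 435 labelled cells, and the other 35 were not used here. Cells were dissociated with trypsin, sorted with Draq7, captured on Fluidigm C1 chips (medium size for 1 of the E13.5 captures, small for the rest) and prepared with SMARTer and Nextera XT, per the labels' protocols. The submitters' processing notes name GRCm38.p3 and mm10. For the aligner, the counter and the annotation, the names were not given in the sources used here. RPKM values are not counts, so no count model was used, and recovered whole reads (within 0.05 of a whole number) made up 68.6% of low values in the median cell, too few to rebuild counts.

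Cells under 3000 detected genes (3, all E16.5) were left out. In the second E12.5 capture, 2 near-identical cells, of wells 49 and 56 (r = 0.998, next pair 0.701) were averaged. Captures, not cells, were the replicates: log2(mean RPKM + 1) was fitted with limma 3.58.1 (trend, robust), in R 4.3.3, over genes with a mean of at least 1 RPKM in 2 captures, with Benjamini-Hochberg adjustment and a threshold of 0.05. Class comparisons were blocked by capture. The code was tested on simulated data. All 10 genes are named in every comparison. Of each other list up to 4 called genes by size of change are named, or 2 by level where none was called, and the 5 genes most like Col4a1 and Lama1. The members and lists were chosen with earlier results of these data known.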

Additional observations from a re-analysis of the deposited data

Results flagged for a closer look

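In 40 sets of 6 late captures (4 values for each of the 10 genes), the extreme capture was compared with the nearest of the others, and 2 sets stood out, where chance flags about 1 in 20. Both concern Nid2 in the second E16.5 capture. Its mean over all cells was 41.2 RPKM, and the next capture was at 19.1. Its mean over stromal cells was 71.4 RPKM, and the next capture was at 30.2. In that capture 4 cells held 90.4% of the Nid2 signal.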

How the results depend on the processing

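Values below are members called out of 10, with 3 for late against early captures, 1 for E13.5 against E10.5, 5 between the classes and 0 for the other contrasts in the fits of the report. For late against early, all genes called in the same fit are in brackets, 71 in the fit of the report. The member count was 0 without the filter on low values (4), 1 with the mean of log2 values (83) and 0 in the 10 M read captures (0). It was 0 in stromal cells only (5), 1 without germ-marker cells (51) and 0 to 3 over the fits that left out 1 capture. For E13.5 against E10.5 it was 2 with a pseudocount of 0.1 (Col18a1 and Nid1) and 0 without the filter, with the mean of log2 values, with median-ratio scaling, with at least 4000 detected genes, in stromal cells only and without germ-marker cells, and 0 to 1 over left-out captures. For E16.5 against E11.5 it was 1 with the mean of log2 values (Col4a1, 497 of all genes called). It was 1 in stromal cells only (Col18a1, 74 of all genes called), where the fit of the report called 187. Between the classes it was 3 without the filter (401 of all genes called), where the fit of the report called 919. It was also 3 without stromal cells of 2 or more smooth muscle markers (433), a fit that also loses the first E16.5 capture. Over left-out captures it was 3 to 5. For stromal cells E16.5 against E12.5 it was 1 with the mean of log2 values and 0 to 1 over left-out captures, each time Col18a1. With the mean of log2 values the class comparison called 1883 of all genes, 67.2% of them higher, where the fit of the report called 919, 44.6% of them higher, and its median over all genes was 0.11 in place of -0.16. The fits on stromal cells only and without germ-marker cells were chosen after seeing the data. The cause was not tested.

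Signs turned for 4 differences that had not passed. Lamb2 late minus early was 0.03 with the mean of log2 values, 0.08 in the 25 M read captures and -0.37 to 0.08 over left-out captures. Hspg2 was -0.03 with the mean of log2 values, -0.22 in the 10 M read captures, and -0.28 to 0.20 over left-out captures, with -0.28, -0.09, -0.07 and -0.07 without E10.5, the first E12.5, the second E13.5 and the first E16.5 capture. Col18a1 was -0.53 in stromal cells only. Between the classes Lamb2 was 0.14 with the mean of log2 values and 0.05 without stromal cells of 2 or more smooth muscle markers.

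No paired analysis was possible because the capture numbers link no captures of different stages. The class comparison already holds the capture as a block, and without it 4 members were called, Col4a2 being lost (adjusted p = 0.0780). E10.5 has 1 capture, late Sertoli-marker means rest on as few as 5 cells, and at 10 M reads 1 RPKM of Nid2 was worth about 11.4 reads in the median cell of the first E11.5 capture.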
